A study of Mus musculus with 2 samples.

Results

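The subject is a set of 35 genes that encode Polycomb subunits, DNA methylation enzymes and other chromatin regulators, followed in early thymus cells of the mouse. The 35 genes were found by symbol among the 27998 genes of the deposited matrix, with 1 row each, and were grouped by function. They fall into 6 groups by role: 7 genes of Polycomb repressive complex 2 and its cofactors, 9 subunits of Polycomb repressive complex 1, 6 enzymes that methylate DNA or oxidize the methyl group, 4 histone H3 demethylases and methyltransferases, 4 histone deacetylases, and 5 remodelers with 1 chromatin organizer among them. All cells came from thymus of C57BL/6 mice that carry a yellow fluorescent reporter allele of Bcl11b on both copies (Bcl11b yfp/yfp), and every sort was taken from cells that were lineage negative, 7AAD negative and Kit positive. The 4 gated sorts were also CD25 negative and negative for the Bcl11b reporter, and were Flt3- Ly6d+ (847 cells, not gated on HSA), Flt3- Ly6d- HSA- (1205 cells), Flt3+ HSA+ (1182 cells) and Flt3+ Ly6d- HSA- (1412 cells). The control sort (3302 cells) had no further gate, and is named in the labels as spanning early thymic progenitors (ETP) to the second double negative stage (DN2). Each sort carried its own hashtag antibody and all were run as 1 Chromium 3′ library, so there was 1 sort per population, no replicate and no test between populations. How many mice were used is not given in the labels.

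Polycomb repressive complex 2 places methyl groups on lysine 27 of histone H3 through Ezh2 or its paralogue Ezh1, and Polycomb repressive complex 1 reads that mark and ubiquitinates histone H2A, so that genes of other lineages or stages stay silent. Dnmt1 copies DNA methylation onto the new strand after replication, Dnmt3a and Dnmt3b place it anew, and Tet enzymes oxidize it. In the thymus these systems act while progenitors shut down stem cell genes and enter the T lineage, a step that ends with expression of Bcl11b.

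Promoter windows are shown first for 5 of the 6 members that were at least 1.5-fold apart, in 1 direction, between mitotic and remaining cells in every sort, since the results on the cell cycle turn on them. They come from the RefSeq promoter table (GRCm38.p6), where 31 of 35 members have an entry, in 47 windows of 300 bases that run from 250 bases before to 50 after a start site. Cbx2, Kdm6b, Hdac1 and Hdac3 were not matched. Capitals mark matches, on either strand, to the E2F letters TTTCCCGC, TTTCGCGC, TTTGCCGC or TTTGGCGC. The first 3 genes shown had a match, while Rbbp7 and Ezh1 had none and are shown beside them. Dnmt3a, the other of the 6, had 3 windows, none with a match, and is not shown. A link between matches and cycle class was not tested. Each sequence is written 5′ to 3′ on the strand of its gene.
Ezh2 (chr6:47594981-47595280, minus strand): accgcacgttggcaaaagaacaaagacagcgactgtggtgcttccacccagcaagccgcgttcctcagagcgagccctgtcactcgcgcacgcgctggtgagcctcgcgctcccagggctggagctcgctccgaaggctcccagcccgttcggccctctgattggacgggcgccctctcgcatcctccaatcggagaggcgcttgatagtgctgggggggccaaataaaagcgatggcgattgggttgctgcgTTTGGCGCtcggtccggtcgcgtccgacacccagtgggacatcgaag
Dnmt1 (chr9:20952574-20952873, minus strand): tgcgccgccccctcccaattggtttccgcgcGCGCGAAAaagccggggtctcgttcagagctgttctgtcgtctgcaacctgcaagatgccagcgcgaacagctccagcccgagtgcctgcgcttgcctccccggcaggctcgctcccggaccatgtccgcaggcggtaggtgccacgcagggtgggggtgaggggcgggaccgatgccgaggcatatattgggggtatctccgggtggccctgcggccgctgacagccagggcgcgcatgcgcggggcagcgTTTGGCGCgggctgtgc
Suz12 (chr11:79992856-79993155, plus strand): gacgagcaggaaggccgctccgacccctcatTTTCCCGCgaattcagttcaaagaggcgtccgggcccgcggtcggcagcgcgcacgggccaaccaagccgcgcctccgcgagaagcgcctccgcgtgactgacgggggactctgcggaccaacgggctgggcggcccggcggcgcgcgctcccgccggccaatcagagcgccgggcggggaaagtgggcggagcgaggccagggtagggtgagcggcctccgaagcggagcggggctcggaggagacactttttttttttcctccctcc
Rbbp7 (chrX:162760122-162760421, plus strand): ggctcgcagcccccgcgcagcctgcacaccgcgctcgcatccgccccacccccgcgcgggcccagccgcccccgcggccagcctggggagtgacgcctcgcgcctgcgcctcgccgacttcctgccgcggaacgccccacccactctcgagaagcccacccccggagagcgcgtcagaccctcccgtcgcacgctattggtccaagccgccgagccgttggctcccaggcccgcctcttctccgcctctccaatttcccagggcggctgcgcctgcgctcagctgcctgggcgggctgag
Ezh1 (chr11:101226414-101226713, minus strand): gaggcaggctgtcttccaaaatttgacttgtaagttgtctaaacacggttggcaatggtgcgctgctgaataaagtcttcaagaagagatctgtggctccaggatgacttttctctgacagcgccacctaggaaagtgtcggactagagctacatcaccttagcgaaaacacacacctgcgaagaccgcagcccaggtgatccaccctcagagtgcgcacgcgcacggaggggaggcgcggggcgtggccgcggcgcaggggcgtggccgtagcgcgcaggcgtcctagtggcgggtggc
These E2F letters stood in 4 of the 47 member windows, those of Ezh2, Dnmt1, Suz12 and Arid1a, and in 744 of all 32851 windows of the table (2.26%). The Ezh2 match began 4 bases into the transcript. Dnmt1 had 3 windows, of which the printed 1 held the letters, at 34 bases into the transcript and, on the opposite strand, at -219. The Suz12 match lay at -219 and that of Arid1a at -55. The CCAAT letters, searched on both strands, stood in 18 of the 47 member windows and in 37.4% of all windows, and the letters TTTGAA in 6 of 47 and in 17.9%. A match is a description of letters in this window, not a bound site.

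The 5 sorts differed in how many of their cells were dividing. Cells were classed after drawing 3000 unique molecular identifiers (UMIs) from each: a cell with 5 or more UMIs of 25 G2 and M phase genes was called mitotic, any other cell with 5 or more UMIs of 24 S phase genes was put in an S phase class, and the rest are called remaining cells. Values outside mitosis join the S phase class and the remaining cells. No member is in either list. Mitotic cells made up 9.81% of Flt3- Ly6d+, 6.98% of Flt3- Ly6d- HSA- and 29.9% of control cells. They made up 52.3% of Flt3+ HSA+ and 29.3% of Flt3+ Ly6d- HSA-. The S phase class made up 29.2% of Flt3- Ly6d+, 24.5% of Flt3- Ly6d- HSA- and 35.2% of control cells. It made up 35.5% of Flt3+ HSA+ and 41.4% of Flt3+ Ly6d- HSA-. Remaining cells made up 61.0% of Flt3- Ly6d+, 68.5% of Flt3- Ly6d- HSA- and 34.9% of control cells. They made up 12.2% of Flt3+ HSA+ and 29.4% of Flt3+ Ly6d- HSA-. Cells outside mitosis thus differed between sorts in their mix of S phase class and remaining cells. These classes are ranges of a count, not cell types: 365 of 7817 classed cells had 4 or 5 UMIs of the G2 and M list. At the limit between the S phase class and remaining cells, 760 cells that were not mitotic had 4 or 5 UMIs of the S phase list. Levels below are summed UMIs of a population scaled to 1000000 (CPM), with total UMIs between 10616041 and 57199129 per sort and 95% intervals that cover counting error only. Such a level cannot tell fewer cells that express a gene from less RNA per cell. Flt3, Ly6d, Cd24a (HSA) and Bcl11b stood as sorted. Flt3 was at 14.2 to 23.8 CPM in the Flt3- sorts and the control, 64.1 in Flt3+ HSA+ and 87.7 in Flt3+ Ly6d- HSA-. Ly6d was at 431 in Flt3- Ly6d+ and 11.3 to 17.5 in the other gated sorts. Cd24a was at 142 in Flt3+ HSA+, 96.2 in Flt3- Ly6d- HSA- and 80.4 in Flt3+ Ly6d- HSA-. Bcl11b was at 0.284 to 3.49 in the gated sorts and 193 in the control. Kit and Il2ra (CD25) were not set beside their gates here. The 6 gate genes together, Kit and Il2ra among them, were at 794 CPM in Flt3- Ly6d+ and 239 to 290 in the other gated sorts. Cells with UMIs of at least 7 of 14 granulocyte and monocyte markers, here the granulocyte class, numbered 0 in Flt3- Ly6d+, 101 in Flt3- Ly6d- HSA-, 27 in Flt3+ HSA+, 68 in Flt3+ Ly6d- HSA- and 45 in the control, and held 0 to 20.3% of a sort's UMIs. In all, 47 cells had 6 or 7 of these markers, on either side of that limit. The markers were counted among all UMIs of a cell, not the 3000 drawn, so cells with more UMIs could reach the limit more easily. In Flt3- Ly6d- HSA- the class was 8.38% of cells and held 20.3% of UMIs. Over all cells, summed markers of dendritic cells were at 35.2 to 113 CPM, highest in Flt3+ HSA+ and the control. Those of mast cells and basophils were at 6.59 to 55.2, highest in Flt3- Ly6d- HSA-. Among remaining cells dendritic markers were at 202 CPM in Flt3+ HSA+, 254 in the control and 37.6 to 76.3 in the other sorts. Granulocyte and monocyte markers were at 1933 in remaining Flt3+ HSA+ and 518 in remaining Flt3- Ly6d+ cells. Mast cell and basophil markers were at 36.2 in remaining Flt3+ HSA+, 42.0 in remaining Flt3- Ly6d- HSA- and 4.57 in remaining Flt3- Ly6d+ cells. The part of these cells in the results was not tested.

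**Figure D1:**
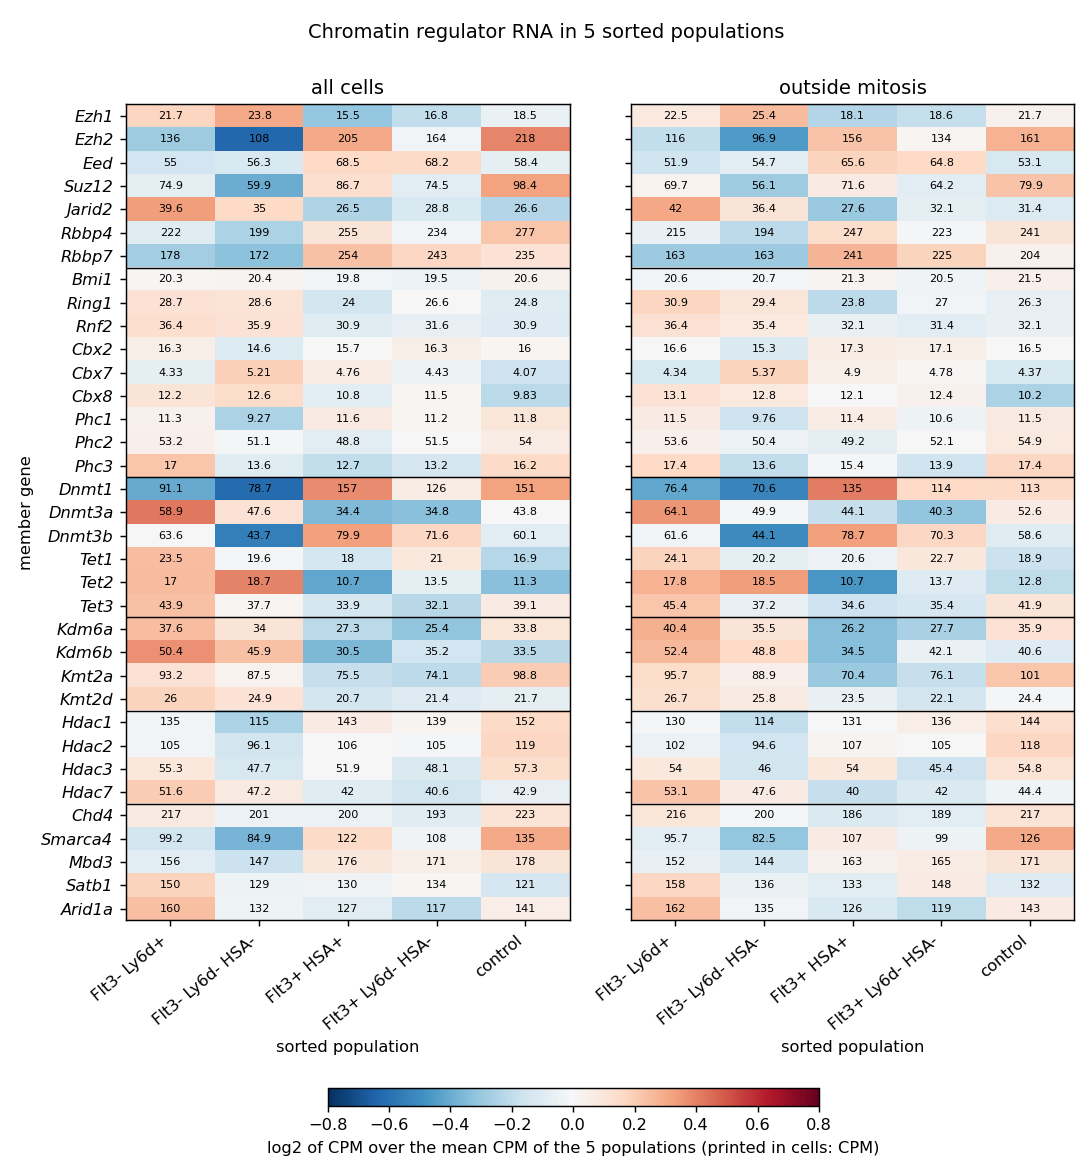
Level of each of the 35 members (rows, grouped by role) in the 5 sorts (columns), over all cells (left) and outside mitosis (right). Numbers in the cells are CPM, and color is the log2 of that level over the mean of the 5 sorts. The strongest colors are in the rows of Ezh2, Dnmt1, Dnmt3b, Dnmt3a and Tet2, and the rows of Bmi1, Phc2 and Chd4 are nearly white.

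Most members were held within a narrow range over all cells. The ratio of the highest to the lowest of the 5 sorts ran over the members from 1.06 for Bmi1 to 2.03 for Ezh2, and its largest values after Ezh2 belonged to Dnmt1 (2.0), Dnmt3b (1.83), Tet2 (1.75) and Dnmt3a (1.71). A gene was counted as apart between 2 populations when it was at 5 CPM or more in either and the ratio was at least 1.5. Every member but Cbx7 was at 5 CPM or more in at least 1 population of each pair. Cbx7, a chromobox reader of methylated H3K27, had the fewest UMIs (583 over the 5 sorts), at 4.33 CPM in Flt3- Ly6d+, 5.21 in Flt3- Ly6d- HSA-, 4.76 in Flt3+ HSA+, 4.43 in Flt3+ Ly6d- HSA- and 4.07 in the control.

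Among Polycomb repressive complex 2 genes, the catalytic subunit Ezh2 (GRCm38 6:47530139-47595341, minus strand) varied most. Ezh2 was at 136 CPM (129 to 144) in Flt3- Ly6d+, 108 (102 to 113) in Flt3- Ly6d- HSA-, 205 (200 to 211) in Flt3+ HSA+, 164 (159 to 169) in Flt3+ Ly6d- HSA- and 218 (214 to 222) in the control. The 5 intervals did not overlap, and the 2 Flt3- sorts, which had the lowest shares of mitotic cells, were lowest. The control, with 29.9% mitotic cells, was highest, above Flt3+ HSA+ with 52.3%. Flt3+ Ly6d- HSA-, with 29.3%, lay below both. The part of these shares in the Ezh2 levels was not tested. The other catalytic subunit, Ezh1, had the opposite order in the 4 gated sorts, with 21.7 CPM (19.0 to 24.7) in Flt3- Ly6d+, 23.8 (21.3 to 26.4) in Flt3- Ly6d- HSA-, 15.5 (14 to 17.1) in Flt3+ HSA+, 16.8 (15.2 to 18.5) in Flt3+ Ly6d- HSA- and 18.5 (17.4 to 19.7) in the control. Each Flt3- interval lay above that of both Flt3+ sorts, but the 2 Flt3- intervals overlapped each other, as did the 2 Flt3+ intervals.

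Suz12, the scaffold subunit that the catalytic subunits need, was at 74.9 CPM in Flt3- Ly6d+, 59.9 in Flt3- Ly6d- HSA-, 86.7 in Flt3+ HSA+, 74.5 in Flt3+ Ly6d- HSA- and 98.4 in the control. Rbbp7, a histone-binding subunit, was at 178 CPM in Flt3- Ly6d+, 172 in Flt3- Ly6d- HSA-, 254 in Flt3+ HSA+, 243 in Flt3+ Ly6d- HSA- and 235 in the control. Its 2 Flt3- values therefore lay below the other 3. Its paralogue Rbbp4 ranged from 199 to 277 CPM and Eed, the subunit that binds the methylated histone tail, from 55 to 68.5. Jarid2, a cofactor that helps to recruit the complex, ran the other way, with 39.6 CPM in Flt3- Ly6d+, 35 in Flt3- Ly6d- HSA-, 26.5 in Flt3+ HSA+, 28.8 in Flt3+ Ly6d- HSA- and 26.6 in the control.

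The 9 Polycomb repressive complex 1 genes stayed within 1.34-fold over all cells. Bmi1, a core RING partner subunit known for its role in stem cell self-renewal, was at 20.3 CPM in Flt3- Ly6d+, 20.4 in Flt3- Ly6d- HSA-, 19.8 in Flt3+ HSA+, 19.5 in Flt3+ Ly6d- HSA- and 20.6 in the control. These values could not be told apart at this depth, since their counting intervals overlapped. The highest over lowest ratio was 1.20 for Ring1 and 1.18 for Rnf2, the paired ubiquitin ligases, 1.12 for the chromobox gene Cbx2 and 1.11 for the polyhomeotic gene Phc2. It was wider for the other chromobox genes, 1.28 for Cbx7 and 1.29 for Cbx8, and for the other polyhomeotic genes, 1.27 for Phc1 and 1.34 for Phc3. None of the group was 1.5-fold apart in any of the 5 comparisons, over all cells or outside mitosis. Among remaining cells, described below, the ratio was larger for Cbx7 (2.39, from 148 UMIs in all) and Phc1 (1.52), and each was apart in 1 comparison.

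Among DNA methylation enzymes the maintenance enzyme Dnmt1 (9:20907209-20959888, minus strand) followed the order of Ezh2 in the gated sorts. Dnmt1 was at 91.1 CPM (85.4 to 97.0) in Flt3- Ly6d+, 78.7 (74.1 to 83.5) in Flt3- Ly6d- HSA-, 157 (152 to 162) in Flt3+ HSA+, 126 (121 to 130) in Flt3+ Ly6d- HSA- and 151 (147 to 154) in the control. The 2 de novo enzymes did not share an order. Dnmt3a (12:3806007-3914443, plus strand) was at 58.9 CPM (54.3 to 63.7) in Flt3- Ly6d+, 47.6 (44.0 to 51.3) in Flt3- Ly6d- HSA-, 34.4 (32.2 to 36.7) in Flt3+ HSA+, 34.8 (32.5 to 37.2) in Flt3+ Ly6d- HSA- and 43.8 (42.1 to 45.5) in the control. Dnmt3b (2:153649450-153687730, plus strand) was at 63.6 CPM (58.9 to 68.6) in Flt3- Ly6d+, 43.7 (40.3 to 47.3) in Flt3- Ly6d- HSA-, 79.9 (76.5 to 83.5) in Flt3+ HSA+, 71.6 (68.3 to 75.0) in Flt3+ Ly6d- HSA- and 60.1 (58.1 to 62.1) in the control. Compared with both Flt3+ sorts, both Flt3- sorts thus had more Dnmt3a, with intervals that did not overlap. Dnmt3b was lower in both Flt3- sorts, but the intervals of Flt3- Ly6d+ and Flt3+ Ly6d- HSA- overlapped. Among remaining cells Dnmt3b ranged only from 46.4 CPM in Flt3- Ly6d- HSA- to 62.5 in Flt3+ Ly6d- HSA-. Of the oxidizing enzymes, Tet2 was at 17.0 CPM in Flt3- Ly6d+, 18.7 in Flt3- Ly6d- HSA-, 10.7 in Flt3+ HSA+, 13.5 in Flt3+ Ly6d- HSA- and 11.3 in the control, while Tet1 ranged from 16.9 to 23.5 and Tet3 from 32.1 to 43.9.

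Genes of the demethylases that remove methyl groups from H3K27 were higher in the Flt3- than in the Flt3+ sorts over all cells. Kdm6b was at 50.4 CPM in Flt3- Ly6d+, 45.9 in Flt3- Ly6d- HSA-, 30.5 in Flt3+ HSA+, 35.2 in Flt3+ Ly6d- HSA- and 33.5 in the control. Kdm6a was at 37.6 CPM in Flt3- Ly6d+, 34.0 in Flt3- Ly6d- HSA-, 27.3 in Flt3+ HSA+, 25.4 in Flt3+ Ly6d- HSA- and 33.8 in the control. Among remaining cells Kdm6b did not keep this order, at 59.0 CPM in Flt3- Ly6d+, 59.4 in Flt3- Ly6d- HSA-, 45.3 in Flt3+ HSA+, 59.4 in Flt3+ Ly6d- HSA- and 53.3 in the control. The H3K4 methyltransferase gene Kmt2a ranged from 74.1 to 98.8 CPM and Kmt2d from 20.7 to 26. The deacetylase genes were flatter, Hdac1 at 115 to 152 CPM, Hdac2 at 96.1 to 119, Hdac3 at 47.7 to 57.3 and Hdac7 at 40.6 to 51.6. So was Chd4, the ATPase of the NuRD remodeler, at 193 to 223 CPM. Smarca4, an ATPase of the BAF remodelers, had 99.2 CPM in Flt3- Ly6d+, 84.9 in Flt3- Ly6d- HSA-, 122 in Flt3+ HSA+, 108 in Flt3+ Ly6d- HSA- and 135 in the control. The chromatin organizer Satb1 ranged from 121 to 150 CPM, the BAF subunit gene Arid1a from 117 to 160 and the NuRD subunit gene Mbd3 from 147 to 178.

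Flt3- Ly6d- HSA- was set against Flt3+ Ly6d- HSA-, a pair whose gates differ in Flt3. Here 3 of 35 members were lower by 1.5-fold and none higher, which is 8.57% of the members, against 9.15% of all 9210 genes measured, so the share was near the background. The 3 were Ezh2 (ratio 0.656, 0.618 to 0.697), Dnmt1 (0.626, 0.584 to 0.670) and Dnmt3b (0.610, 0.555 to 0.669). Rbbp7 (0.709) came next but was within the limit, and the highest ratios were those of Ezh1 (1.42, 1.22 to 1.64), Tet2 (1.39) and Dnmt3a (1.37). The median log2 ratio was 0.04 over the members and 0.03 over all genes, and by group was -0.28 for Polycomb repressive complex 2, 0.07 for complex 1 and 0.31 for the H3K27 and H3K4 enzymes. All 25 G2 and M phase genes were also at least 1.5-fold lower in Flt3- Ly6d- HSA-, and the summed granulocyte and monocyte markers were at 4571 CPM there and 3248 in Flt3+ Ly6d- HSA-. Outside mitosis 2 of 35 members stayed apart, Dnmt1 (0.620, 0.571 to 0.673) and Dnmt3b (0.627, 0.564 to 0.696), against 7.4% of all genes, and Ezh2 came to 0.722 (0.671 to 0.776). Without the granulocyte class there were 5, with Ezh1 higher (1.5) and Rbbp7 (0.637) lower beside Ezh2 (0.625), Dnmt1 (0.534) and Dnmt3b (0.648), against 13.0% of all genes. Outside mitosis the cycle lists still differed, with 22 of 24 S phase genes and 13 of 20 measured G2 and M phase genes at least 1.5-fold lower in Flt3- Ly6d- HSA-. The part of this difference in the member ratios was not tested.

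Between the Ly6d+ sort and the HSA+ sort, compared as Flt3- Ly6d+ over Flt3+ HSA+, 5 of 34 measured members were apart (14.7%), against 15.6% of all 9236 genes, again near the background. Higher in Flt3- Ly6d+ were Dnmt3a (ratio 1.71, 1.54 to 1.90), Kdm6b (1.65, 1.48 to 1.85) and Tet2 (1.59, 1.31 to 1.93). Lower were Ezh2 (0.664, 0.626 to 0.704) and Dnmt1 (0.580, 0.540 to 0.622). These 3 higher and 2 lower became 2 and 3 with TMM factors, and 4 and 1 with totals without mitochondrial and ribosomal protein genes. Outside mitosis Jarid2 (1.52, 1.30 to 1.79), Tet2 (1.67), Kdm6a (1.54) and Kdm6b (1.52) were higher and Dnmt1 (0.564) was lower, against 14.5% of all genes, while Dnmt3a came to 1.45 and Ezh2 to 0.744. These 4 higher and 1 lower became 1 and 2 with TMM or DESeq2 size factors: with TMM factors the log2 ratios of Jarid2 (0.56), Kdm6a (0.58) and Kdm6b (0.55) were within the limit and that of Rbbp7 (-0.61) was beyond it. Without cells that held any G2 or M phase UMI, 1 higher (Tet2) and 1 lower (Dnmt1) were left. Outside mitosis all 24 S phase genes and 17 of 21 measured G2 and M phase genes were also at least 1.5-fold lower in Flt3- Ly6d+. The part of this difference in the member ratios was not tested. No granulocyte class cell was found in Flt3- Ly6d+.

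No member was 1.5-fold apart in the other 3 comparisons, over all cells or outside mitosis. Flt3+ HSA+ over Flt3+ Ly6d- HSA- had 0 of 34 members over all cells, against 2.8% of all genes, and 0 outside mitosis, against 2.17%, with Ezh2 and Dnmt1 both at a ratio of 1.25 over all cells. Flt3- Ly6d+ over Flt3- Ly6d- HSA- had 0 of 35, against 4.23%, and 0 outside mitosis, against 3.86%, with Dnmt3b nearest to the limit at 1.46 (1.30 to 1.63) and Ezh2 at 1.27 (1.18 to 1.36). The unweighted mean of the 4 gated sorts over the control had 0 of 34, against 7.06%, and 0 outside mitosis, against 5.93%, with Ezh2 lowest at 0.703 (0.685 to 0.721) and Tet2 highest at 1.33. Comparisons that share a sort are not independent of each other.

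**Figure D2:**
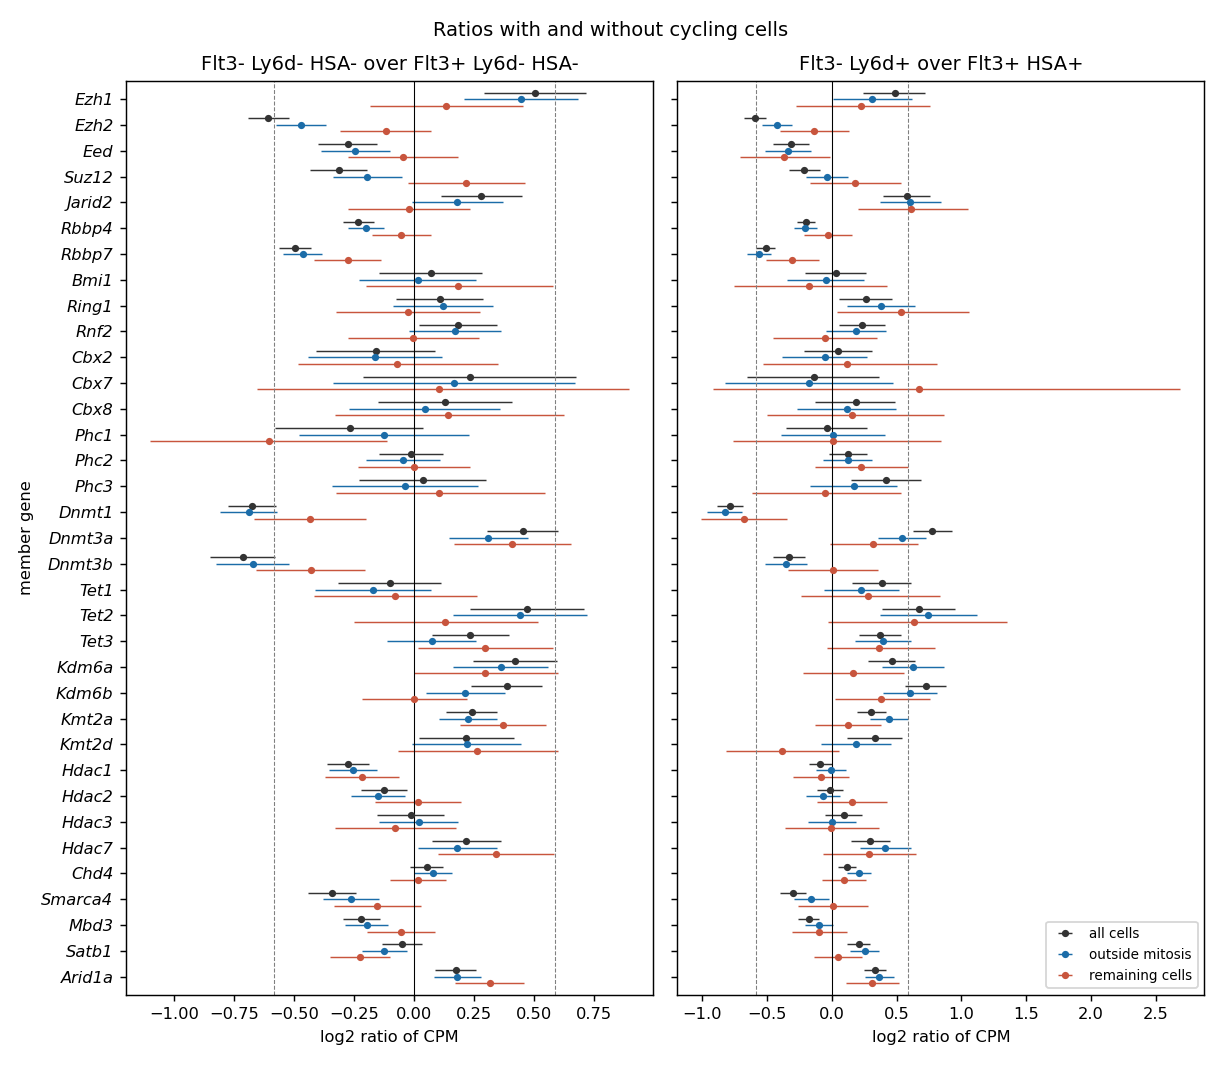
Log2 ratio of each member in 2 comparisons, Flt3- Ly6d- HSA- over Flt3+ Ly6d- HSA- and Flt3- Ly6d+ over Flt3+ HSA+, for all cells, cells outside mitosis and remaining cells, with counting intervals and dashed lines at 1.5-fold. Ezh2 moves from beyond the lower line over all cells (0.656 and 0.664) to inside it outside mitosis (0.722 and 0.744), while Dnmt1 is beyond it there (0.620 and 0.564). Among remaining cells Dnmt1 is within the line in the first comparison (0.740) and beyond it in the second (0.624).

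Within each sort the members were then set out by cycle class, a contrast between cells sorted and sequenced together. Ezh2, Dnmt1, Suz12 and Rbbp7 were at least 1.5-fold higher in mitotic than in remaining cells in all 5 sorts, 4 of 34 members (11.8%), against 6.87% of genes measured in all 5. Ezh1 and Dnmt3a were at least 1.5-fold lower in all 5, 2 of 34 (5.88%), against 5.11% of genes. Ezh2 was at 253 CPM in mitotic and 83.5 in remaining Flt3- Ly6d+ cells, 190 in mitotic and 74.0 in remaining Flt3- Ly6d- HSA- cells, 234 in mitotic and 91.7 in remaining Flt3+ HSA+ cells, 210 in mitotic and 80.4 in remaining Flt3+ Ly6d- HSA- cells, and 292 in mitotic and 99.5 in remaining control cells. The 5 ratios ran from 2.55 in Flt3+ HSA+ to 3.02 in Flt3- Ly6d+. Dnmt1 was at 174 CPM in mitotic and 42.0 in remaining Flt3- Ly6d+ cells, 141 in mitotic and 43.5 in remaining Flt3- Ly6d- HSA- cells, 170 in mitotic and 67.4 in remaining Flt3+ HSA+ cells, 144 in mitotic and 58.8 in remaining Flt3+ Ly6d- HSA- cells, and 199 in mitotic and 50.5 in remaining control cells. Its ratios ran from 2.45 in Flt3+ Ly6d- HSA- to 4.13 in Flt3- Ly6d+. Mitotic over remaining ratios ran from 1.67 to 2.13 for Suz12 and from 1.65 to 2.07 for Rbbp7. On the other side they ran from 0.380 to 0.626 for Ezh1 and from 0.454 to 0.609 for Dnmt3a. The 2 catalytic subunits of Polycomb repressive complex 2 thus lay on opposite sides in all 5 sorts, as did the maintenance enzyme and 1 of the 2 de novo DNA methylation enzymes.

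Other members were near 1 or passed the limit in some sorts alone. Chd4 ran from 0.997 to 1.04 and Bmi1 from 0.872 to 1.06. Dnmt3b had no common direction, with 1.37 in Flt3- Ly6d+, 0.793 in Flt3- Ly6d- HSA-, 1.52 in Flt3+ HSA+, 1.17 in Flt3+ Ly6d- HSA- and 1.19 in the control. Satb1 (0.463 to 0.701) and Jarid2 (0.493 to 0.790) were lower in mitotic cells of all 5 sorts but missed the limit in Flt3+ HSA+. Kdm6b (0.396 to 0.673) missed it in Flt3- Ly6d+. Kdm6a and Kmt2d, chosen as examples after their values were seen, were each lower by 1.5-fold in 3 of the 5 sorts.

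In the S phase class, Ezh2, Dnmt1 and Rbbp7 were at least 1.5-fold higher than in remaining cells in all 5 sorts, 3 of 34 members (8.82%), against 4.24% of genes. Satb1 was at least 1.5-fold lower in all 5, 1 of 34 (2.94%), against 2.04%. The S phase class over remaining ratio ran from 1.80 to 1.99 for Ezh2, from 2.24 to 2.99 for Dnmt1, from 1.64 to 1.84 for Rbbp7 and from 0.521 to 0.660 for Satb1. Dnmt3a ran from 0.659 to 0.942 here, closer to 1 than in mitotic cells. Suz12 was at 1.16 in Flt3- Ly6d- HSA- and at 1.52 to 1.62 in the other 4 sorts.

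**Figure D3:**
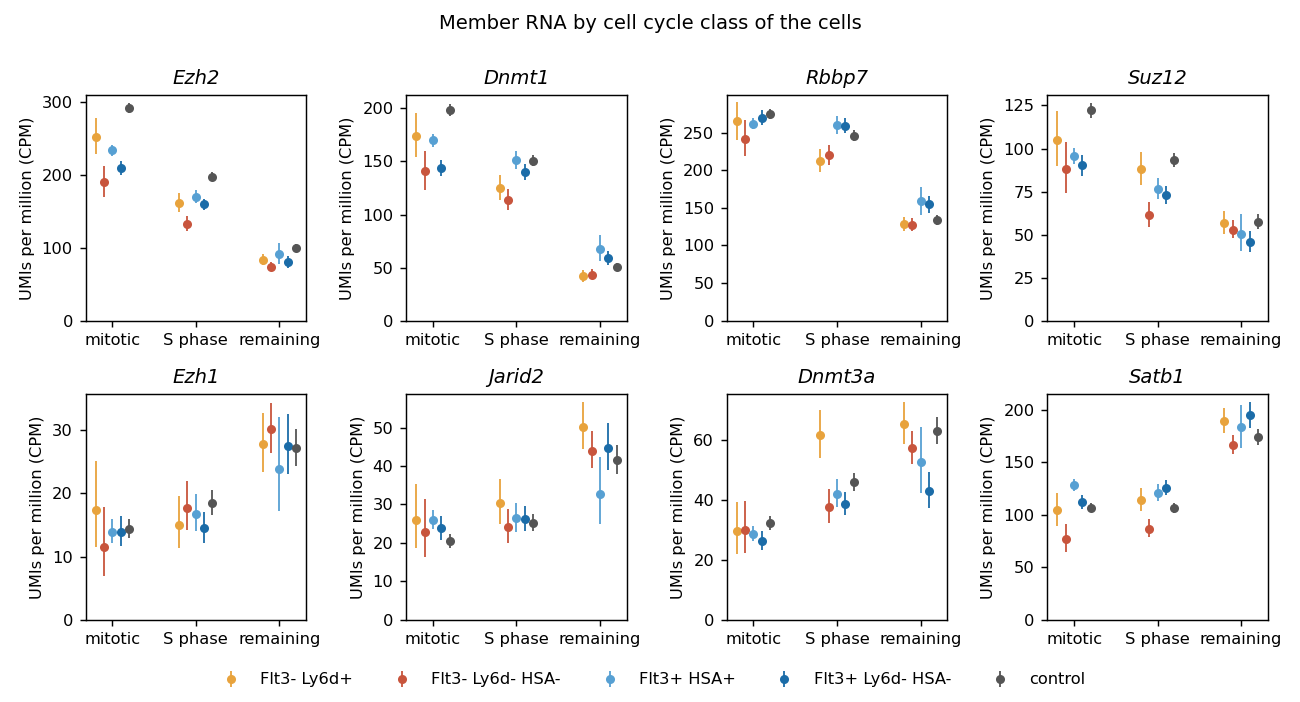
Level in CPM, with exact Poisson intervals, of 8 members in mitotic, S phase class and remaining cells of each sort. Ezh2, Dnmt1, Rbbp7 and Suz12 are lowest in the remaining cells of every sort (Ezh2 at 253 CPM in mitotic and 83.5 in remaining Flt3- Ly6d+ cells), and Ezh1, Jarid2, Dnmt3a and Satb1 are highest there.

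The differences between sorts were smaller for Ezh2 among remaining cells. Ezh2 was at 83.5 CPM (75.9 to 91.7) in Flt3- Ly6d+, 74.0 (68.0 to 80.4) in Flt3- Ly6d- HSA-, 91.7 (78.1 to 107) in Flt3+ HSA+, 80.4 (72.5 to 88.9) in Flt3+ Ly6d- HSA- and 99.5 (94.0 to 105) in the control. The intervals of the 2 Flt3- and the 2 Flt3+ sorts overlapped. Dnmt1 stayed lower in both Flt3- than in both Flt3+ sorts there, with 42.0 CPM (36.7 to 48.0) in Flt3- Ly6d+, 43.5 (38.9 to 48.5) in Flt3- Ly6d- HSA-, 67.4 (55.8 to 80.6) in Flt3+ HSA+, 58.8 (52.1 to 66.1) in Flt3+ Ly6d- HSA- and 50.5 (46.5 to 54.7) in the control. The summed S phase list was also lower in the Flt3- sorts among these cells, at 764 CPM in Flt3- Ly6d+, 775 in Flt3- Ly6d- HSA-, 1202 in Flt3+ HSA+, 1011 in Flt3+ Ly6d- HSA- and 885 in the control, and its part in the Dnmt1 result was not tested. Counts of members apart among remaining cells were 1 of 35 for Flt3- Ly6d- HSA- over Flt3+ Ly6d- HSA- (Phc1 lower, 7.39% of all genes either way) and 3 of 34 for Flt3- Ly6d+ over Flt3+ HSA+ (Jarid2 and Tet2 higher, Dnmt1 lower, against 15.4%). Flt3+ HSA+ over Flt3+ Ly6d- HSA- had 2 of 35 (Kmt2d higher and Cbx7 lower, against 9.95%), from 143 Flt3+ HSA+ and 413 Flt3+ Ly6d- HSA- cells. The mean of the 4 gated sorts over the control had 1 of 34 (Smarca4 lower, 0.663, 0.616 to 0.714, against 6.24%), and Flt3- Ly6d+ over Flt3- Ly6d- HSA- had 0 of 35, against 4.23%.

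Shares of UMIs within paralogue families show the same shift in other terms. Since 3′ counts are not on one scale across genes, a share is compared only between populations. Ezh1 took 13.7% (12.1 to 15.5) of the Ezh1 and Ezh2 UMIs in Flt3- Ly6d+, 18.1% (16.3 to 19.9) in Flt3- Ly6d- HSA-, 7.02% (6.37 to 7.72) in Flt3+ HSA+, 9.28% (8.44 to 10.2) in Flt3+ Ly6d- HSA- and 7.83% (7.38 to 8.29) in the control. Outside mitosis the shares ran from 10.4% in Flt3+ HSA+ to 20.8% in Flt3- Ly6d- HSA-. Among remaining cells they were 25% (21.5 to 28.7) in Flt3- Ly6d+, 28.9% (25.8 to 32.2) in Flt3- Ly6d- HSA-, 20.6% (15.3 to 26.8) in Flt3+ HSA+, 25.5% (21.8 to 29.5) in Flt3+ Ly6d- HSA- and 21.4% (19.4 to 23.6) in the control, and the intervals of the 4 gated sorts overlapped in every pair.

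Dnmt3a took 27.6% of the UMIs of the 3 Dnmt genes in Flt3- Ly6d+, 28.0% in Flt3- Ly6d- HSA-, 12.7% in Flt3+ HSA+, 15% in Flt3+ Ly6d- HSA- and 17.2% in the control. Among remaining cells it took 40.7% (37.4 to 44.1) in Flt3- Ly6d+, 39.0% (36.1 to 41.9) in Flt3- Ly6d- HSA-, 30.4% (25.3 to 35.9) in Flt3+ HSA+, 26.3% (23.2 to 29.5) in Flt3+ Ly6d- HSA- and 38.2% (36.0 to 40.3) in the control. Unlike for Ezh1, the Flt3- and Flt3+ intervals did not overlap in these cells. Other families were steadier over all cells. Ring1 took 43.7 to 45.7% of Ring1 and Rnf2 UMIs and Hdac1 took 54.5 to 57.5% of Hdac1 and Hdac2 UMIs over the 5 sorts. Among remaining cells both spread more: Ring1 took 36.8% (28.0 to 46.4, from 114 UMIs) in Flt3+ HSA+ and 45.2 to 46.9% in the other 4 sorts, with overlapping intervals, and Hdac1 took 54.8 to 61.5%.

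**Figure D4:**
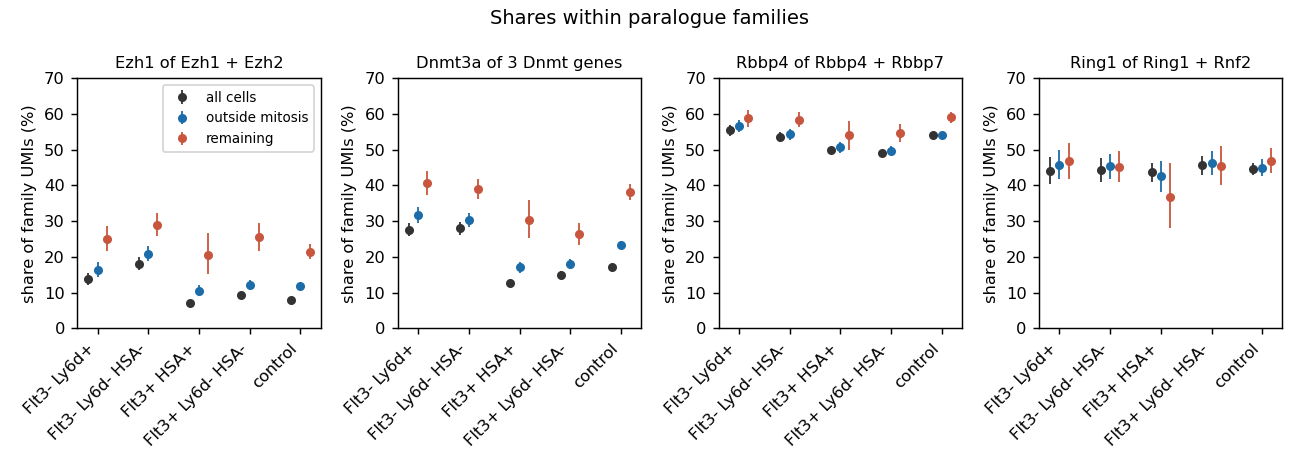
Share of a family's UMIs, in percent with exact binomial intervals, taken by Ezh1, Dnmt3a, Rbbp4 and Ring1 in each sort, for all cells, cells outside mitosis and remaining cells. The Ezh1 share spreads from 7.02 to 18.1% over all cells and from 20.6 to 28.9% among remaining cells, and the Ring1 share stays between 43.7 and 45.7% over all cells but is 36.8% among remaining Flt3+ HSA+ cells.

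Many members were lower in the granulocyte class than in the other cells of the same sort. In the 4 sorts that held such cells, 13 of 34 members were at least 1.5-fold lower in the class in every sort (38.2%), against 16% of genes, and no member was higher in every sort, against 6.85%. The 13 were Ezh1, Cbx2, Phc1, Dnmt3a, Dnmt3b, Tet1, Tet3, Kdm6a, Kdm6b, Kmt2a, Hdac7, Satb1 and Arid1a. Satb1 was at 33 CPM in the class and 154 in the other cells of Flt3- Ly6d- HSA-, 14.1 in the class and 137 in the others of Flt3+ HSA+, 23.1 in the class and 147 in the others of Flt3+ Ly6d- HSA-, and 34.5 in the class and 124 in the others of the control. Class over other cells ratios ran from 0.107 to 0.341 for Cbx2, from 0.118 to 0.256 for Tet1, from 0.177 to 0.341 for Dnmt3b and from 0.209 to 0.294 for Kdm6b. Tet2 (0.925 to 1.5) and Ezh2 (0.615 to 1.23) had no common direction. Rbbp7 and Dnmt1 were at least 1.5-fold higher in the class of Flt3- Ly6d- HSA-. The class is small, at 27 cells in Flt3+ HSA+, and free RNA of other cells was not removed. Cycle classes were pooled in this contrast. Leaving out the granulocyte class took the summed S phase list of Flt3- Ly6d- HSA- from 1661 to 1347 CPM. Its G2 and M list went from 664 to 535. The S phase list moved less in Flt3+ Ly6d- HSA- (2641 to 2604), Flt3+ HSA+ (2941 to 2954) and the control (3047 to 3051). The part of the cycle, and of calling the class without thinning, in these ratios was not tested.

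The control was the sort not gated against the Bcl11b reporter, and its cells outside mitosis were split by a Bcl11b UMI among the 3000 drawn, into 642 cells with and 1636 without. This split is by depth-limited detection, since 402 of 3250 control cells had exactly 1 such UMI. The cells with a Bcl11b UMI had 0.355 CPM of Flt3, 389 of Il2ra and 610 of Bcl11b, and those without had 24 CPM of Flt3, 162 of Il2ra and 42.6 of Bcl11b. Members 1.5-fold higher numbered 2 of 34 (against 5.79% of all genes) and members lower 0 (against 6.27%). With the granulocyte class also left out, 2 of 34 were higher (against 5.78%) and 0 lower (against 6.11%). Smarca4 (9:21616169-21704230, plus strand) was at 179 CPM in cells with a Bcl11b UMI and 107 in those without, a ratio of 1.67. Phc3, a polyhomeotic subunit of Polycomb repressive complex 1, was at 23.8 CPM with and 15.2 without, a ratio of 1.57 (1.31 to 1.87). Dnmt3b leaned the other way at 43.6 CPM with and 63.9 without (0.683).

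The contrast was wider among remaining control cells, 300 with a Bcl11b UMI and 834 without. Smarca4 was at 245 CPM in cells with a Bcl11b UMI and 98.9 in those without (ratio 2.48, 2.24 to 2.74). Phc3 was at 35.4 CPM with and 17.8 without (1.99, 1.53 to 2.58), and Kmt2a had a ratio of 1.61 (1.44 to 1.80). Lower were Cbx2, at 7.74 CPM with and 18 without (0.431, 0.260 to 0.680), Dnmt3b, at 30.2 CPM with and 58.5 without (0.516, 0.404 to 0.652), and Eed, at 33.5 CPM with and 52.2 without (0.643). These are 3 of 35 members higher, against 9.9% of all genes, and 3 lower, against 9.99%. Among mitotic control cells no member was apart, against 4.7% of genes higher and 4.77% lower, and Smarca4 was at 169 CPM with and 136 without (1.24). The median total was 7872 UMIs in remaining cells with a Bcl11b UMI and 10531 in those without. Marker RNA of other cell types was also present in remaining control cells, with dendritic markers at 254 CPM and granulocyte and monocyte markers at 881. In the granulocyte class of the control, Smarca4, Phc3 and Kmt2a were at least 1.5-fold lower than in its other cells. So were Cbx2 and Dnmt3b, which lay on the other side of this split. The part of depth and of such cells in these values was not tested.

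**Figure D5:**
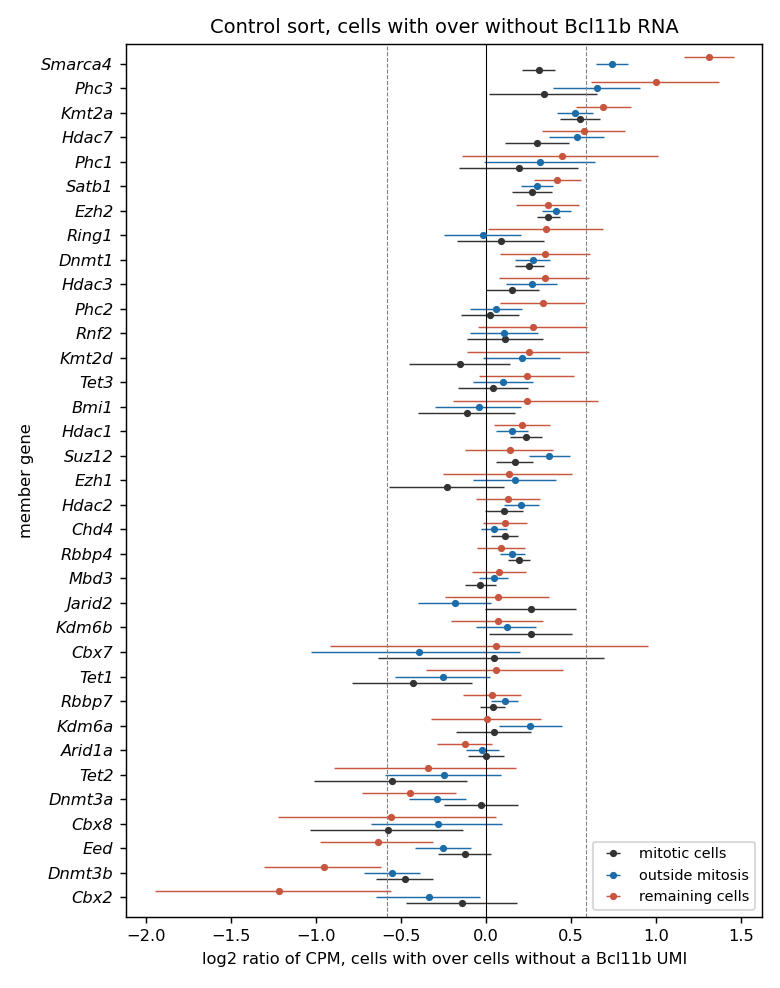
Log2 ratio of each member in control cells with over control cells without a Bcl11b UMI, with counting intervals and dashed lines at 1.5-fold. Smarca4 lies farthest above 0, at a ratio of 1.67 outside mitosis and 2.48 among remaining cells, and Cbx2 farthest below among remaining cells (0.431).

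Another 100 genes of the same pathways were listed for comparison, of which 94 or 95 were measured. In Flt3- Ly6d- HSA- over Flt3+ Ly6d- HSA-, 2 of 95 were higher and 5 lower, which is 7.37%, against 9.15% of all genes. Kdm5b, an H3K4 demethylase, was at 133 CPM in Flt3- Ly6d- HSA- and 59.4 in Flt3+ Ly6d- HSA-, and Uhrf1, the partner that brings Dnmt1 to new DNA, at 42.0 in Flt3- Ly6d- HSA- and 91.4 in Flt3+ Ly6d- HSA-. In Flt3- Ly6d+ over Flt3+ HSA+, 7 of 95 were higher and 7 lower, which is 14.7%, against 15.6% of all genes, with Kdm5b at 161 CPM in Flt3- Ly6d+ and 53.9 in Flt3+ HSA+, and Uhrf1 at 54.4 in Flt3- Ly6d+ and 107 in Flt3+ HSA+. Outside mitosis the ratio of Kdm5b was 1.94 in the first and 2.46 in the second of these comparisons, and that of Uhrf1 was 0.436 in the first and 0.356 in the second. Uhrf1 thus lay on the same side as Dnmt1 in both. Flt3+ HSA+ over Flt3+ Ly6d- HSA- and Flt3- Ly6d+ over Flt3- Ly6d- HSA- had 0 of 94 apart, against 2.8% of all genes in the first and 4.23% in the second. The mean of the gated sorts over the control had 1 of 95 higher and 3 lower, which is 4.21%, against 7.06%, with Hdac4, a class II deacetylase, at 11.6 CPM over the gated sorts and 22.6 in the control.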

How the data were processed

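Gene expression was measured in 5 hashtagged sorts of mouse thymus cells, pooled into 1 Chromium 3′ v3 cDNA library. The deposited matrix holds counts, as UMIs per gene and barcode with no normalization, which the authors made with Cell Ranger 3.0 on mm10, per the submitters' processing notes. The deposited hashtag counts served only to check purity, and the authors' assignment of barcodes to sorts was used as given: 345 of 8293 barcodes had none and were left out. With 1 cDNA library, no barcode was shared between libraries. UMIs were summed per sort and scaled to CPM. Levels carry exact Poisson, ratios binomial and shares exact Clopper-Pearson 95% intervals, which cover counting error only. Ratios of the mean of the gated sorts over the control carry a log-normal approximation in place of the binomial interval. Each sort is 1 sample, so no test was run. A gene was apart at a ratio of 1.5 or more with 5 CPM in either population. For cycle classes each cell was thinned to 3000 UMIs (seed 20), and 131 shallower cells were left out (21 in Flt3- Ly6d+, 45 in Flt3- Ly6d- HSA-, 6 in Flt3+ HSA+, 7 in Flt3+ Ly6d- HSA- and 52 in the control). Doublets within a hashtag were not called, and no cells were clustered. All 35 members could be named, and of 100 other pathway genes at most 6 per direction and comparison that were apart at 20 CPM or more in the higher population. The members and lists were chosen with earlier results of these data known. Gene coordinates come from GENCODE M21. Alternatives covered scaling factors (edgeR 4.0.16 TMM and DESeq2 1.42.0 size factors in R 4.3.3, used for scaling alone), cell weights, filters and cell classes. Python 3.11.15, NumPy 2.4.6, SciPy 1.17.1, pandas 2.3.3 and matplotlib 3.10.9 were used, and the counting of genes apart was tested on simulated data.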

Additional observations from a re-analysis of the deposited data

How the results depend on the processing

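No paired analysis was possible because each population came from 1 sort, and for the same reason no replicate could be left out. Of the counts of members apart, these moved by over 1.5 times. For Flt3- Ly6d- HSA- over Flt3+ Ly6d- HSA-, 3 over all cells became 5 with equal weight for each cell, 5 without the granulocyte class and 0 at 2-fold; 2 outside mitosis became 5 with cells thinned to 3000 UMIs, 1 without the granulocyte class, 1 without the S phase class and 0 at 2-fold. For Flt3- Ly6d+ over Flt3+ HSA+, 5 over all cells became 0 at 2-fold, and 5 outside mitosis became 3 with TMM factors, 3 with DESeq2 size factors, 2 without any G2 or M phase UMI, 3 without the S phase class and 0 at 2-fold. Counts of 0 became 1 for Flt3- Ly6d+ over Flt3- Ly6d- HSA- with equal weight, over all cells and outside mitosis. Outside mitosis, 0 became 1 without any G2 or M phase UMI and 2 without the S phase class for Flt3+ HSA+ over Flt3+ Ly6d- HSA-, and 1 with thinned cells and 1 without the S phase class for the mean of the gated sorts over the control. The cause was not tested. The other 111 counts under these alternatives stayed within 1.5 times, and no called member changed direction. Those counts include the filter on hashtag purity, which shifted none of 350 member ratios, so its counts could not move. Member log2 ratios moved by at most 0.09 with TMM factors and 0.06 with DESeq2 size factors, by up to 0.60 with thinned or equally weighted cells, by up to 0.44 without any G2 or M phase UMI, and by up to 1.19 (Cbx7) without the S phase class, where 66 of 175 ratios left their interval. Ratios also left their interval with thinned cells (120 of 350), equal weight (33 of 350) and without the granulocyte class (29 of 350). Without any G2 or M phase UMI 22 of 175 did. Cell sets that also leave out the granulocyte class outside mitosis, and the splits of the control by class, were chosen after seeing the data. Intervals are widest for Cbx7 and in the 143 remaining Flt3+ HSA+ cells.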
